A study of Mus musculus with 6 samples.

Results

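The Ms4a genes encode membrane-spanning 4A proteins, and 7 of them were followed here in mouse bone marrow monocytes (BMDM) and brainstem microglia (BSM): Ms4a3, Ms4a4b, Ms4a4c, Ms4a6b, Ms4a6c, Ms4a6d and Ms4a7. The members were taken by gene symbol, and each was found once among the 35237 genes of the Cufflinks table and once among the 36536 genes of the ALEXA-Seq table. Ms4a4b, Ms4a4c, Ms4a6b and Ms4a6c were higher in all 3 BMDM libraries than in any BSM library, the direction of Ms4a6d turned with the scaling of the libraries, Ms4a7 was near 0 in both, and Ms4a3 was found in BMDM at a level that differed 11.8-fold between libraries.

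RNA-Seq was performed on 3 sets of BMDM and 3 sets of BSM from untreated C57BL/6 mice at 6 weeks of age, with no transgene or other allele in either group. BMDM were sorted by FACS as CD11b+ CD45high CD115+ Ly6G- cells of bone marrow, and BSM as CD11b+ CD45low CD115low Ly6G- cells of brainstem. Per the labels, replicate 1 of each cell type came from male mice and replicates 2 and 3 from female mice, whereas the study's text names male mice, and cells of several mice were pooled for each set. A BMDM library is therefore a pool of marrow monocytes and not of blood monocytes or of cultured macrophages, and a BSM library holds whatever cells of the brainstem passed the gate. RNA was amplified as cDNA before sequencing.

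MS4A proteins cross the membrane 4 times and keep both ends inside the cell. The best known are CD20 of B cells, encoded by Ms4a1, and the beta chain of the high affinity IgE receptor of mast cells and basophils, encoded by Ms4a2. Several members are found next to immune receptors in the membrane, and in myeloid cells the family is known from monocytes and tissue macrophages. In the mouse the Ms4a4 and Ms4a6 subfamilies hold several closely related copies, so the names of these genes do not correspond to single human genes.

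In mm9, the build of the files, the 7 members lay between positions 11395903 and 11715295 of chromosome 19, a span of 319.4 kb within a cluster of 15 genes listed under an Ms4a symbol that covered 678.5 kb. Ms4a7 was the first of them, followed by Ms4a4c (11479260 to 11501519), Ms4a4b (11518043 to 11538039), Ms4a6c (11543962 to 11555203) and Ms4a6b (11593049 to 11604893), which GENCODE M21 places on the plus strand, and by Ms4a6d (11661094 to 11679339) and Ms4a3 (11703984 to 11715295) on the minus strand. All 7 are annotated as protein coding.

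The promoters of the Ms4a4c and Ms4a4b pair and of the Ms4a6c and Ms4a6b pair are printed because all 4 genes were higher in BMDM and each pair stems from related copies. They hold the 250 bases before and the 50 after the RefSeq start site on GRCm38.p6, a build other than that of the files, at chr19:11407411-11407710, chr19:11443308-11443607, chr19:11469118-11469417 and chr19:11518309-11518608, all on the plus strand. Capitals mark the longest run of identical bases within each pair, 20 bases for Ms4a4c and Ms4a4b and 48 bases for Ms4a6c and Ms4a6b.
Ms4a4c: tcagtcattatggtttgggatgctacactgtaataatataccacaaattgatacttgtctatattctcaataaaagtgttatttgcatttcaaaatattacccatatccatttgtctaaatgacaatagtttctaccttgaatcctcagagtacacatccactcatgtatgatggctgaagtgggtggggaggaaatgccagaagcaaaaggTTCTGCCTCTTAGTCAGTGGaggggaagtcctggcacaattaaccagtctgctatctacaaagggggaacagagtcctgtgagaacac
Ms4a4b: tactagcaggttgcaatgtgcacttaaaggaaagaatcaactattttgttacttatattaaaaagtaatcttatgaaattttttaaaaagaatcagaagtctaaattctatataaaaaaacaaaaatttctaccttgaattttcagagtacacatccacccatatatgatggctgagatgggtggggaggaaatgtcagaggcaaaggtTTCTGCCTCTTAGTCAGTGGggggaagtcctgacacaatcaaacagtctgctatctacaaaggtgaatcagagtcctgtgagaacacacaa
Ms4a6c: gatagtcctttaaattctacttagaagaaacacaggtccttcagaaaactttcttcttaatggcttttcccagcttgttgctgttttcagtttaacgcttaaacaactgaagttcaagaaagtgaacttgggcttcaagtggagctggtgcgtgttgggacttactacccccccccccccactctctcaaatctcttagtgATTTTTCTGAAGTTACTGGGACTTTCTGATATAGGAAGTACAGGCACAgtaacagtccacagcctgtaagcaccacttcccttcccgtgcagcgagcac
Ms4a6b: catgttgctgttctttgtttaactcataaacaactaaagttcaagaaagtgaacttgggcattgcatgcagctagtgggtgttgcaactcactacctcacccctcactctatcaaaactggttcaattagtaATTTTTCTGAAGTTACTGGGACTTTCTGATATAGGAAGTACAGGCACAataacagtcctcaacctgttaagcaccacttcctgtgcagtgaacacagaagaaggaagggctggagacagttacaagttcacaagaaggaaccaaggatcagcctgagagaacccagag

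The best local alignment of the Ms4a4c and Ms4a4b promoters covered 177 bases at 89.8% identity, and that of Ms4a6c and Ms4a6b covered 216 bases at 89.4%. RefSeq held 7 promoters for 6 of the members, with 2 for Ms4a7. On both strands, GAGGAAG (PU.1), the core of the interferon response element and TTCNNNGAA (STAT element) were found in none of the 7, beside 13.6%, 3.4% and 8.3% of the 32851 promoters of the genome. TTGCNNAA (C/EBP) occurred in that of Ms4a3 and in 10.8% of all promoters. TGTGGT (RUNX) occurred in that of Ms4a4c and in 16.8% of all. The letters TATAAA of the TATA box occurred in that of Ms4a4b and in 13.6% of all. These are matches of letters in a window of 300 bases, and none of the motifs was shared by the promoters printed above.

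Close copies can share reads. By blastn, the transcripts of Ms4a4b and Ms4a4c matched over 1444 bases at 82.8% identity, those of Ms4a6b and Ms4a6c over 1234 bases at 86.1%, and those of Ms4a6b and Ms4a6d over 933 bases at 82.5%. Of the windows of 100 bases, the length of a read, those with at most 2 mismatches to another Ms4a gene made up 5.11% of the Ms4a4c transcript, 5.23% of Ms4a6b, 5.4% of Ms4a6c, 3.11% of Ms4a6d and 2.99% of Ms4a4b, and 0% of Ms4a3 and Ms4a7. Of the Ms4a4b windows, 1.78% were shared in this way with Ms4a4c and 1.2% with Ms4a2, which is not a member. How the reads of such windows were assigned was not tested, and the low values of one copy beside a high copy are uncertain for that reason.

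The 2 deposited tables were made from the same reads, so they do not count as independent evidence of each other. FPKM are fragments scaled by exon length and by mapped reads, and ALEXA-Seq values are a gene signal on a linear scale whose unit is not stated in the sources used here. Levels of different genes were therefore compared mainly by FPKM. FPKM summed to between 163198.7 and 194184.2 in BMDM and to between 68287.8 and 75021.4 in BSM, and the median log2 fold change (BMDM minus BSM) over the 6364 tested genes was 0.81 in the FPKM table and 0.84 in the ALEXA-Seq table. A gene that did not differ relative to other genes would thus lie above 0, and values relative to this median are given below. BSM replicate 1 had 5155 genes with an FPKM of at least 1, against 6335 and 6518 in the other BSM libraries. The study's RNA quality records give the RNA of this library a far lower integrity number than that of the other 5 libraries, and its mapped reads are listed as no fewer than theirs. The part of RNA quality in its values, among them the zeros of Ms4a4c and Ms4a6c and the shares of Ms4a6d and Ms4a6b, was not tested. The monocyte markers Ccr2, Ly6c2, Clec12a and F13a1 were called higher in BMDM and the microglia markers P2ry12, Tmem119, Siglech and Sall1 higher in BSM. Itgam, the gene of the sort marker CD11b, was listed at an FPKM of 0 in BSM replicate 2 but at 176 and 100.5 in BSM replicates 1 and 3, so a listed 0 is not always absence.

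**Figure D1:**
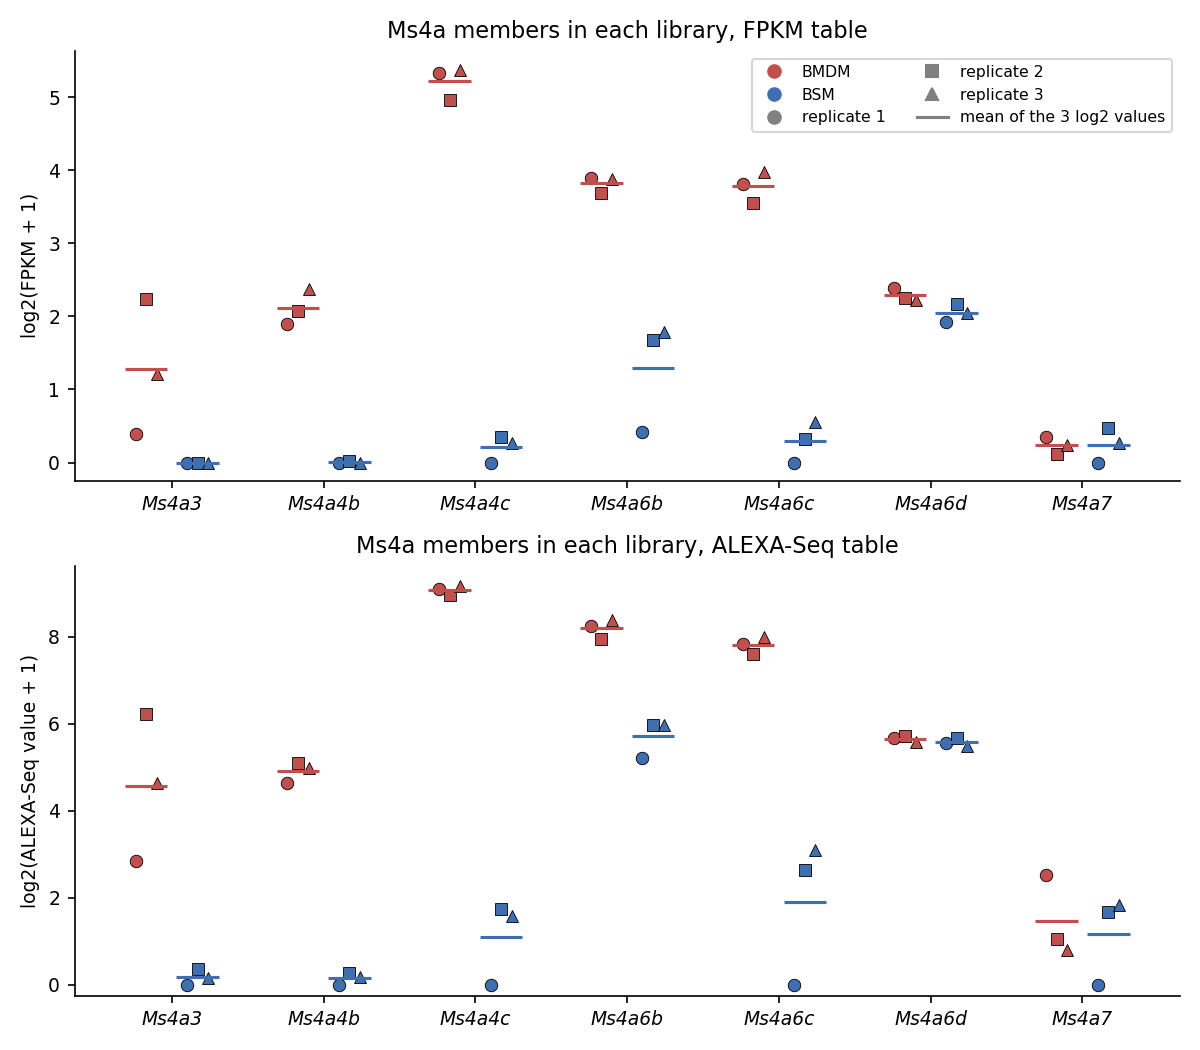
Values of the 7 members in each library on the log2(value + 1) scale, above by FPKM and below by ALEXA-Seq, with BMDM in red, BSM in blue, a marker shape for each replicate number and a bar for the mean of the 3 log2 values. The BMDM and BSM points stand far apart for Ms4a4b, Ms4a4c, Ms4a6b and Ms4a6c, lie side by side for Ms4a6d and Ms4a7, and the 3 BMDM points of Ms4a3 are spread widely.

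Of the 6 members with an FPKM of at least 3 in any library, 4 were called higher in BMDM and 0 higher in BSM (limma, Benjamini-Hochberg adjusted p under 0.05 over all 6364 genes). Only Ms4a6d of these members reached 3 in a BSM library. The others passed the minimum through BMDM alone, where they were high. The direction of the calls and the median of the tested members by FPKM are therefore not independent of the minimum. Of all tested genes 54.5% were called, 45.3% as higher in BMDM and 9.22% as higher in BSM. By ALEXA-Seq 5 members were among the 6364 genes tested and 4 of them were called, all higher in BMDM, beside 47.9% of all genes called, 37.1% as higher in BMDM and 10.9% as higher in BSM. The median log2 fold change of the tested members was 2.31 by FPKM and 4.39 by ALEXA-Seq, beside 0.81 and 0.84 over all genes. The genes tested by ALEXA-Seq were taken by their highest value in any library, which was at least 37.41. In BSM Ms4a3 (at most 0.290), Ms4a4c (2.33) and Ms4a6c (7.59) did not reach it and passed through BMDM alone. The direction of the calls and the median by ALEXA-Seq are therefore not independent of this choice either. All BMDM libraries lay above all BSM libraries for 6 of the 7 members by FPKM and for 5 by ALEXA-Seq, beside 55.2% and 51.5% of the genes tested, and the reverse held for 0 members, beside 11.6% and 14.6%. With 3 libraries a group, an exact two-sided permutation test cannot go below 0.1, the value it gave by FPKM for every member but Ms4a7, where it gave 0.9.

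Ms4a4c, which encodes a four-pass protein of the Ms4a4 subfamily, had the highest FPKM of the family in BMDM. It was at 39.2, 30.2 and 40.2 FPKM in BMDM replicates 1, 2 and 3, and at 0, 0.279 and 0.201 in the BSM replicates. The lowest BMDM library was 108.2 times the highest BSM library. The log2 fold change on the log2(FPKM + 1) scale was 5.01 (SE 0.24, 95% interval 4.46 to 5.56, limma adjusted p = 4.88e-06), or 4.21 above the median of all genes, the 46th of 6364 genes from the BMDM end. By ALEXA-Seq it was at 546, 497 and 579 in BMDM and at 0, 2.33 and 1.97 in BSM. The log2 fold change there was 7.98 (SE 0.51), the 40th of 6364. BSM replicate 1 was at 0 in both tables, and without it the log2 fold change was 4.91 by FPKM and 7.43 by ALEXA-Seq, called in both.

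Ms4a4b, its closest relative in the cluster and known from T cells, where it lies beside the co-stimulatory receptor GITR (Tnfrsf18), was at a lower level in the same libraries. Its FPKM were 2.70, 3.20 and 4.16 in BMDM and 0, 0.0142 and 0 in BSM. The groups were separated, with a log2 fold change of 2.10 (SE 0.29, 95% interval 1.44 to 2.76, limma adjusted p = 0.000710), or 1.296 above the median. Ms4a4c stood at 14.5, 9.44 and 9.65 times the FPKM of Ms4a4b in the 3 BMDM libraries. By ALEXA-Seq Ms4a4b was at 23.8, 33.5 and 30.8 in BMDM and at 0, 0.213 and 0.135 in BSM, which left it out of the 6364 genes with the highest values. Tested over all genes without a minimum, its log2 fold change was 4.76 (limma adjusted p = 0.00152). Of the 6 T cell markers the sum per library was between 0.0476 and 0.9996 FPKM in BMDM and between 0 and 0.273 in BSM, and Cd8a was at 0 in all libraries. Of the 4 NK cell markers the sum was between 0 and 0.191 FPKM in BMDM and between 0.00447 and 0.0586 in BSM. By FPKM Ms4a4b and the T cell sum were both lowest in BMDM replicate 1. By the same measure the sum was highest in replicate 2 and Ms4a4b in replicate 3. By ALEXA-Seq the T cell sum was 1.59, 15.8 and 3.92 in BMDM replicates 1, 2 and 3. Ms4a4b had the same order there, as did 44.1% of the genes tested by ALEXA-Seq. The part of these cells in the Ms4a4b values was not tested.

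Ms4a6b and Ms4a6c, close copies whose human relative is MS4A6A, had almost the same FPKM in BMDM but not in BSM. Ms4a6b was at 13.8, 11.9 and 13.7 FPKM in BMDM and at 0.336, 2.20 and 2.44 in BSM. Ms4a6c was at 13.03, 10.7 and 14.7 in BMDM and at 0, 0.251 and 0.465 in BSM. The groups did not overlap for either gene, and the lowest BMDM library was 4.88 times the highest BSM library for Ms4a6b and 23.0 times for Ms4a6c. The log2 fold change was 2.53 for Ms4a6b (SE 0.38, 95% interval 1.65 to 3.40, limma adjusted p = 0.00116) and 3.49 for Ms4a6c (SE 0.26, 95% interval 2.89 to 4.08, limma adjusted p = 3.52e-05), or 1.72 and 2.68 above the median of all genes. Within a library, Ms4a6b was at 1.06, 1.12 and 0.931 times the FPKM of Ms4a6c in BMDM, and at 8.77 and 5.26 times in BSM replicates 2 and 3, while in BSM replicate 1 Ms4a6c was listed at 0. Without BSM replicate 1 the log2 fold change was 2.09 for Ms4a6b and 3.34 for Ms4a6c, both called.

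By ALEXA-Seq both copies were higher in BMDM as well. Ms4a6b was at 305, 247 and 333 in BMDM and at 36.4, 61.9 and 61.8 in BSM (log2 fold change 2.47, SE 0.29). Ms4a6c was at 228, 193 and 254 in BMDM and at 0, 5.23 and 7.59 in BSM (log2 fold change 5.90, SE 0.80). Both were called. The 2 copies share reads in part, so the small BSM values of Ms4a6c beside those of Ms4a6b are uncertain.

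The monocyte markers give a scale for the BSM values of these members. The highest BSM library, as a percentage of the lowest BMDM library, was 0.3% for Ccr2, the chemokine receptor of inflammatory monocytes, 1.26% for Clec12a and 1.38% for F13a1, and Ly6c2 was listed at 0 in all BSM libraries. The same percentage was 0.524% for Ms4a4b and 0.924% for Ms4a4c, within the range of these markers. It was 4.35% for Ms4a6c and 20.5% for Ms4a6b, above these markers, and 94.6% for Ms4a6d. By ALEXA-Seq it was at most 1.52% for the markers and 0.468%, 3.94% and 25.03% for Ms4a4c, Ms4a6c and Ms4a6b. These percentages are a description, and the part of monocytes in the BSM libraries was not tested. In sorted pools, fewer cells of a type and less RNA per cell cannot be told apart.

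Ms4a6d, the third copy of the Ms4a6 subfamily here, had the log2 fold change closest to 0 among the tested members before any scaling. It was at 4.25, 3.74 and 3.69 FPKM in BMDM and at 2.80, 3.49 and 3.14 in BSM, with means of 3.89 ± 0.314 and 3.14 ± 0.344 (SD, n = 3). The 2 ranges only just missed each other, as the lowest BMDM library was 1.06 times the highest BSM library. The log2 fold change was 0.24 (SE 0.22, 95% interval -0.27 to 0.75, limma adjusted p = 0.373), or -0.56 relative to the median of all genes, a larger distance than the 0.47 of Ms4a3. By ALEXA-Seq it was at 49.9, 51.8 and 47.1 in BMDM and at 46.1, 49.9 and 44.0 in BSM, with overlapping ranges (log2 fold change 0.09, 95% interval -0.52 to 0.69, limma adjusted p = 0.792). A log2 fold change within 0.25 of 0 was found for 12.2% of all genes by FPKM and for 10.7% by ALEXA-Seq.

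The direction of Ms4a6d depended on how the libraries were scaled to each other. By FPKM its log2 fold change was -0.51 after quantile normalization, -0.38 after upper quartile scaling and -0.78 when every library was brought to the same sum, and in the last of these it was called higher in BSM (limma adjusted p = 0.0276). By ALEXA-Seq the values were -0.61, -0.61 and -1.17, with a call in the last (limma adjusted p = 0.0101). The 4 members called by FPKM kept their direction and their call under all 3 scalings, with log2 fold changes of 4.28 to 4.56 for Ms4a4c, 2.75 to 3.03 for Ms4a6c, 1.59 to 1.80 for Ms4a4b and 1.54 to 1.91 for Ms4a6b. The same scalings moved the share of calls that were higher in BMDM from 83.08% to 52.9%, 58.05% and 38.08% by FPKM, and from 77.34% to 51.61%, 51.47% and 30.49% by ALEXA-Seq.

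**Figure D2:**
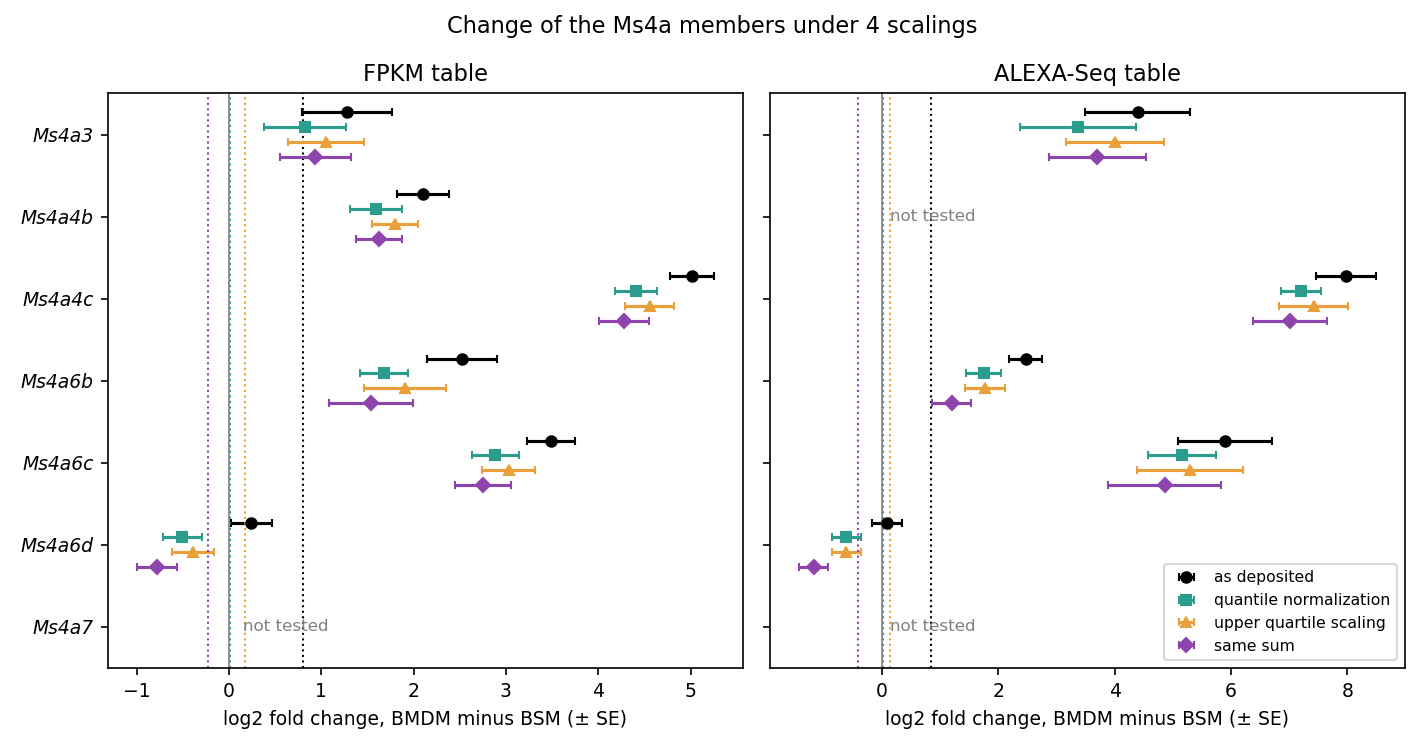
Log2 fold change of each member (BMDM minus BSM, on the log2(value + 1) scale) with its SE, as deposited and under 3 scalings, for both tables; dotted lines mark the median of all tested genes under the scaling of the same colour, and members outside the genes tested are written as not tested. Ms4a4c, Ms4a6c and Ms4a6b stay to the right of 0 throughout, whereas Ms4a6d moves from 0.24 to as low as -0.78 by FPKM and from 0.09 to as low as -1.17 by ALEXA-Seq.

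A ratio of 2 members within a library is free of upper quartile scaling and of scaling to the same sum, which apply 1 factor to a library. Quantile normalization can change such a ratio. The FPKM of Ms4a4c was 9.22, 8.08 and 10.9 times that of Ms4a6d in BMDM, and 0, 0.0800 and 0.0639 times in BSM. Ms4a6b was at 3.25, 3.19 and 3.72 times Ms4a6d in BMDM and at 0.1202, 0.632 and 0.778 times in BSM. Ms4a6c was at 3.06, 2.86 and 3.99 times in BMDM and at 0, 0.0720 and 0.148 times in BSM. The groups did not overlap for any of these ratios in either table, and each gave an exact two-sided permutation p of 0.1, the smallest that 3 against 3 libraries allow. These ratios show that the members changed unequally, not which of them was unchanged.

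The make-up of the family differed accordingly. The Ms4a genes summed to 79.2, 66.6 and 84.6 FPKM in the BMDM libraries and to 3.14, 6.64 and 6.48 in the BSM libraries. Ms4a4c held 45.3% to 49.5% of that sum in BMDM and 0% to 4.2% in BSM. Ms4a6d held 4.36% to 5.61% in BMDM and 48.4% to 89.3% in BSM, and was the highest member by FPKM in all 3 BSM libraries. By ALEXA-Seq this order did not hold throughout. Ms4a6b was there at 0.791, 1.24 and 1.405 times Ms4a6d in BSM replicates 1, 2 and 3. The upper limit of 89.3% came from BSM replicate 1, and the other 2 BSM libraries had 52.5% and 48.4%. Ms4a6b held 16.2% to 17.9% in BMDM and 10.7% to 37.7% in BSM, with the lowest share in BSM replicate 1.

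**Figure D3:**
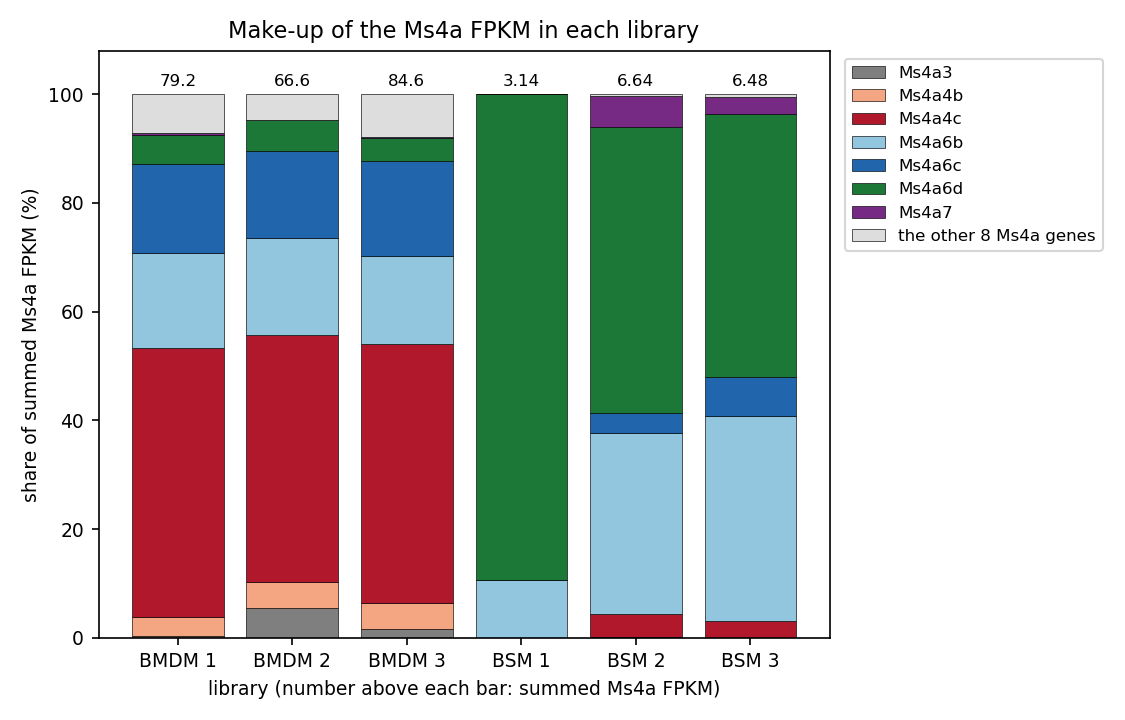
Share of the summed FPKM of the 15 genes listed under an Ms4a symbol (y axis, percent) held by each member in the 6 libraries (x axis), with the summed FPKM above each bar. Ms4a4c fills 45.3% to 49.5% of the BMDM bars, and Ms4a6d fills 89.3% of the bar of BSM replicate 1 and 52.5% and 48.4% of the other BSM bars, which stand for a much smaller sum.

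The order of the levels was not sharp throughout. In BMDM Ms4a4c stood first, at 2.53 to 2.93 times Ms4a6b. Ms4a6b and Ms4a6c came next and overlapped, Ms4a6b being the higher in 2 of the 3 libraries. Ms4a6d and Ms4a4b followed and overlapped as well, then Ms4a3, whose range overlapped that of Ms4a4b, and Ms4a7 was last. In BSM Ms4a6d was above Ms4a6b by FPKM in all 3 libraries. Ms4a6b was at 0.632 and 0.778 times Ms4a6d in BSM replicates 2 and 3 and at 0.1202 times in BSM replicate 1. By ALEXA-Seq Ms4a6b was above Ms4a6d in BSM replicates 2 and 3. Ms4a6c, Ms4a7 and Ms4a4c followed at under 0.5 FPKM with overlapping ranges, and Ms4a3 and Ms4a4b were at or near 0.

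Ms4a3, known as a gene of granulocyte and monocyte progenitors whose protein binds a phosphatase of the cell cycle (Cdkn3), was listed above 0 in BMDM alone by FPKM. It was at 0.315, 3.70 and 1.31 FPKM in the BMDM replicates and listed at 0 in all 3 BSM libraries. By ALEXA-Seq it was at 6.21, 74.1 and 23.9 in BMDM and at 0, 0.290 and 0.123 in BSM. In both tables BMDM replicate 2 was the highest and replicate 1 the lowest, and every BMDM library was above every BSM library. On the log2(FPKM + 1) scale the difference was 1.28 (SE 0.49, 95% interval 0.14 to 2.42) and did not pass the test (limma adjusted p = 0.0569). By ALEXA-Seq it was 4.39 (SE 0.91) and passed (limma adjusted p = 0.00774). Among the alternatives, it passed by FPKM with a pseudocount of 0.1 (3.71, limma adjusted p = 0.0110) and without BMDM replicate 1 (1.72, limma adjusted p = 0.0135), and without BMDM replicate 2 it fell below the FPKM minimum of 3 and was not tested.

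Genes of granule proteins and progenitors followed the same libraries. Elane (neutrophil elastase) was at 9.75, 56.0 and 10.7 FPKM in BMDM replicates 1, 2 and 3. Mpo (myeloperoxidase) was at 32.7, 181 and 67.1, Prtn3 (proteinase 3) at 0.424, 5.03 and 1.34, Ctsg (cathepsin G) at 2.74, 17.3 and 6.94, and Cebpe, a transcription factor of granulocytes, at 0.0260, 0.268 and 0.230. All 5 had their highest value in replicate 2 and their lowest in replicate 1, as Ms4a3 did, an order that 40.9% of the tested genes also had by FPKM and 44.1% by ALEXA-Seq. Replicate 2 was 11.8 times replicate 1 for Ms4a3 and 5.54 to 11.8 times for the 5 genes. The sum of the 5 was 45.6, 259.7 and 86.2 FPKM in BMDM and at most 0.00913 in BSM, where 4 of the 5 were listed at 0 in all libraries. The mature neutrophil list (Ltf, Camp, Ngp, Mmp8, Cxcr2) summed to 17.6, 104 and 19.2 FPKM in BMDM and at most 0.107 in BSM. Its genes did not move together, as Mmp8 was nearly level at 13.9, 14.7 and 14.5 while Ngp was at 2.44, 77.1 and 3.44. Ngp, Mmp8 and Cxcr2 had the order of Ms4a3 by FPKM, and Ltf and Camp were lowest in replicate 3. Ly6g, against which cells were sorted, was listed at 0, 0.293 and 0 in BMDM. The part of these cells in the Ms4a3 values was not tested. Ms4a4c, Ms4a6b and Ms4a6c had their lowest BMDM value in replicate 2 in both tables. Ms4a4b by ALEXA-Seq (23.8, 33.5 and 30.8) was in the same order as Ms4a3, and Ms4a6d by ALEXA-Seq (49.9, 51.8 and 47.1) was highest in replicate 2, in both cases with smaller differences between libraries.

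**Figure D4:**
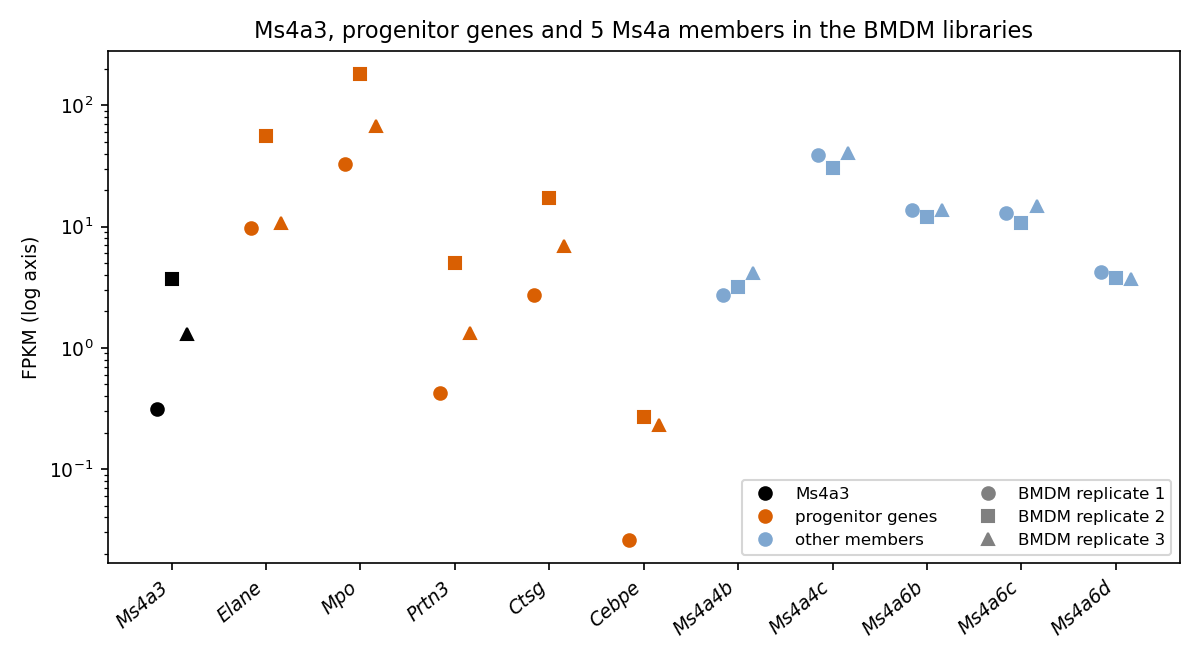
FPKM (log axis) of Ms4a3 (black), 5 progenitor genes (orange) and 5 other members (blue) in the 3 BMDM libraries, with a marker shape for each replicate. Ms4a3 and the progenitor genes are highest in replicate 2 and lowest in replicate 1, 11.8-fold apart for Ms4a3, whereas the 3 points of each other member lie close together.

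Ms4a7, known from tissue macrophages and raised in macrophages at the borders of the brain, was near 0 in both cell types. It was at 0.270, 0.0827 and 0.182 FPKM in BMDM and at 0, 0.389 and 0.201 in BSM, below the FPKM minimum, and the ranges overlapped. By ALEXA-Seq it was at 4.75, 1.09 and 0.739 in BMDM and at 0, 2.21 and 2.59 in BSM. Fitted without a minimum, the log2 fold change was -0.01 by FPKM (SE 0.13, limma adjusted p = 0.956) and 0.29 by ALEXA-Seq (SE 0.74, limma adjusted p = 0.815). The markers of perivascular and border macrophages (Mrc1, Cd163, Lyve1, Pf4, Cbr2 and Stab1 of 7 listed genes were in the table) summed to 1.13, 5.25 and 3.25 FPKM in BSM replicates 1, 2 and 3 and to 1.77, 1.89 and 2.76 in BMDM. The markers did not share a direction. Stab1 was higher in every BSM library and Cbr2 in every BMDM library. Mrc1, Cd163, Pf4 and Lyve1 (0, 1.87 and 0.565 in the BSM libraries) overlapped between the groups. In BSM, Ms4a7 and this sum were both lowest in replicate 1, and by FPKM both were highest in replicate 2, whereas by ALEXA-Seq Ms4a7 was highest in replicate 3 and the sum (20.7, 96.4 and 57.4) in replicate 2. The part of these cells in the Ms4a7 values was not tested.

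Of the other 8 genes listed under an Ms4a symbol in the FPKM table, Ms4a8a alone reached the FPKM minimum. It was at 5.04, 2.49 and 5.92 FPKM in BMDM, listed at 0 in all BSM libraries, and called higher in BMDM (log2 fold change 2.40, SE 0.33, limma adjusted p = 0.000823). ALEXA-Seq gave 78.7, 36.2 and 88.4 against 0 in all BSM libraries, also called (log2 fold change 6.01). Ms4a4d, a further copy next to Ms4a6b, was at 0.487, 0.496 and 0.495 FPKM in BMDM and at 0, 0 and 0.0391 in BSM. Ms4a1, the gene of CD20, was at most 0.157 FPKM in BMDM and at 0 in BSM, and Ms4a2 at most 0.0324 and at 0. Ms4a15 reached 0.0159 FPKM in BMDM replicate 1 and Ms4a5 reached 0.0160 in BSM replicate 2, each with 0 in the other 5 libraries, while Ms4a10 and Ms4a13 were listed at 0 throughout. Ms4a14, read by ALEXA-Seq under that name, was at 0.819, 0 and 0.194 in BMDM and at 1.99, 0.921 and 0.204 in BSM. The B cell markers summed to 0.378, 2.89 and 1.28 FPKM in BMDM and the mast cell and basophil markers to 0.616, 3.21 and 0.296. Both sums were highest in BMDM replicate 2, near the 3.20 FPKM of Ms4a4b in that library. By ALEXA-Seq Cd79a of the B cell list and Mcpt8 of the mast cell and basophil list were called higher in BMDM (limma adjusted p = 0.0492 and 0.00648). Ms4a1 and Ms4a2 themselves were read at a low level, and the part of these cells was not tested.

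**Figure D5:**
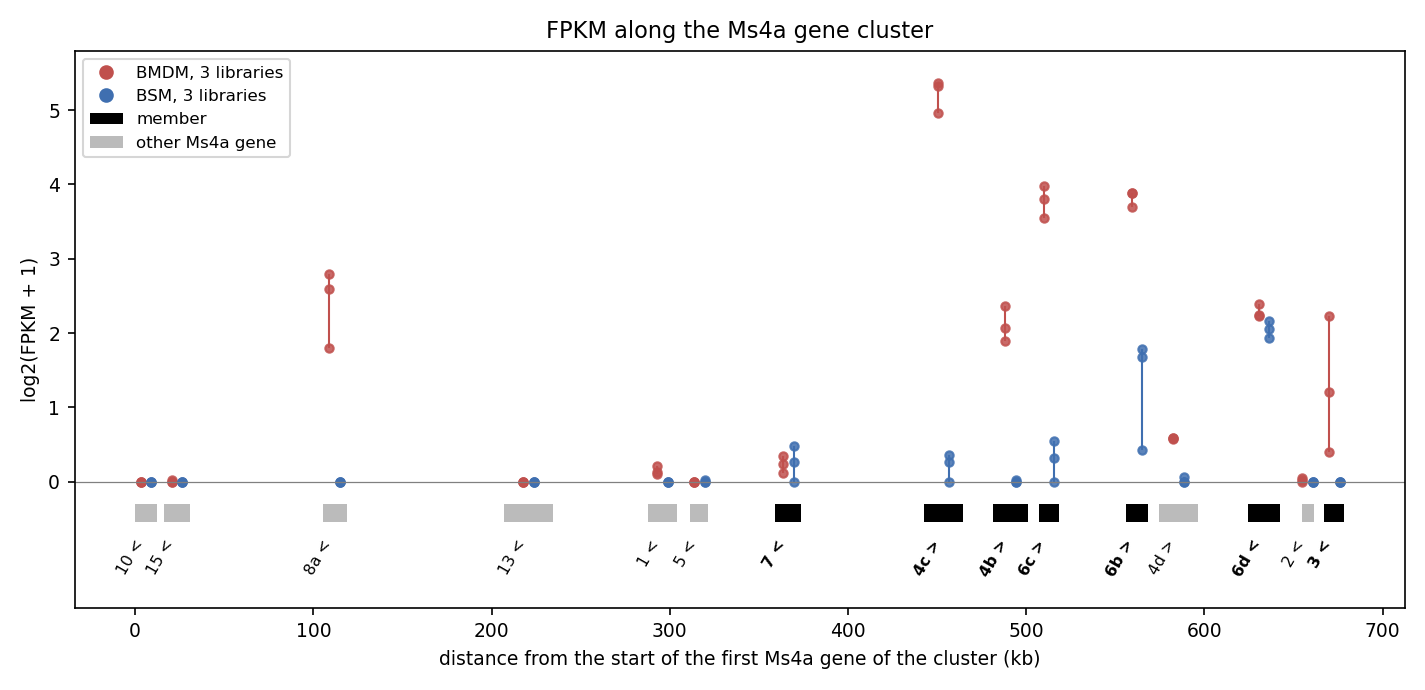
FPKM on the log2(FPKM + 1) scale of the 15 genes listed under an Ms4a symbol along their cluster (x axis, kb from the start of the first gene), with 3 BMDM libraries in red and 3 BSM libraries in blue, black boxes for members, grey boxes for other Ms4a genes and arrows for the strand. Ms4a4c, Ms4a6c and Ms4a6b, which lie in 1 run with Ms4a4b, hold the highest BMDM values, Ms4a8a stands apart from them, and the BSM points rise above 1 only at Ms4a6b and Ms4a6d.

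Tmem176a and Tmem176b, relatives of the family on chromosome 6 that also encode four-pass membrane proteins of myeloid cells, were higher in BSM in their means. Tmem176b was at 3.14, 7.17 and 5.14 FPKM in BMDM and at 57.4, 22.9 and 17.4 in BSM, without overlap, and was called (log2 fold change -2.32, SE 0.46, limma adjusted p = 0.00427). Tmem176a was at 0.534, 1.2999 and 1.02 in BMDM and at 0.819, 3.23 and 3.50 in BSM, with overlap, and was not called (log2 fold change -0.76, limma adjusted p = 0.147). Without BSM replicate 1, the one BSM library within the BMDM range, Tmem176a was called (log2 fold change -1.18, limma adjusted p = 0.00735). It was also called after quantile normalization (-1.58, limma adjusted p = 0.00382), at the same sum (-1.51, limma adjusted p = 0.0283) and with library quality weights (-1.15, limma adjusted p = 0.000361), and not after upper quartile scaling (-1.23, limma adjusted p = 0.0609). ALEXA-Seq gave calls without BSM replicate 1 and under the same 3 settings, and none after upper quartile scaling.

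Of the 8 reported partners of Ms4a proteins, 4 reached the FPKM minimum. Of these 3 were called higher in BMDM and 1 higher in BSM, beside 45.3% and 9.22% of all tested genes. Cdkn3 and Clec7a reached the minimum in BMDM alone and Trem2 in BSM alone, so their directions are not independent of it. Cdkn3, the phosphatase bound by Ms4a3, was at 9.43, 15.5 and 11.5 FPKM in BMDM and at 0.0326, 0.0914 and 0.286 in BSM. Clec7a (dectin-1), the receptor of fungal glucans, was at 15.5, 12.3 and 16.5 in BMDM and at 0.265, 0.942 and 1.09 in BSM. Fcer1g, the signalling chain shared by Fc receptors, was at 255, 367 and 249 in BMDM and at 48.7, 118 and 71.0 in BSM, and its call was lost when libraries were brought to the same sum (log2 fold change 0.62, limma adjusted p = 0.153). Trem2, a lipid receptor of microglia, was higher in BSM, at 5.97, 3.52 and 3.94 FPKM against 0.568, 0.244 and 0.389 in BMDM (log2 fold change -1.95, limma adjusted p = 0.000971). Cdk2, whose activity Cdkn3 holds down, stayed below the minimum at 1.51, 1.89 and 1.88 FPKM in BMDM and 0, 0.314 and 0.217 in BSM. By ALEXA-Seq Cdk2 was tested and called higher in BMDM (log2 fold change 3.48, limma adjusted p = 0.0190), a call that held under 8 of 14 alternatives and was lost without any one of the BMDM libraries (limma adjusted p between 0.0514 and 0.0738). Tnfrsf18 was at most 0.162 FPKM in any library, and Vsig4 and Fcer1a were listed at 0 throughout.

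The neighbours of the cluster were read to see what lies around the members. Within 200 kb of the cluster and between its genes, 28 other genes were listed in the FPKM table, 6 of them with an FPKM of at least 3 in any library, and none of the 8 that lie between genes with an Ms4a symbol was among these 6. These 8 include Ms4a19 and Ms4a20, which the FPKM table lists under older names. Stx3, a membrane fusion protein, was called higher in BMDM (6.34, 4.79 and 5.81 FPKM against 0.0995, 0.766 and 0.541), as were Mrpl16, a protein of the mitochondrial ribosome (log2 fold change 1.22), and Prpf19, a splicing factor (log2 fold change 1.03). By ALEXA-Seq Stx3 and Mrpl16 were called too, and Prpf19 was not (log2 fold change 0.94, limma adjusted p = 0.0738), with overlapping groups. The other 3, Slc15a3, Tmem132a and Tmem109, were not called. The 6 had a median log2 fold change of 0.65, beside 0.81 over all genes. Called higher in BMDM were 3 of the 6 by FPKM and 2 of the 6 tested by ALEXA-Seq, beside 45.3% and 37.1% of all tested genes. Stx3 and Prpf19 reached the FPKM minimum in BMDM alone.

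The tested genes whose 6 FPKM were closest to those of each member, by Euclidean distance on the log2(FPKM + 1) scale, are given as a description of likeness in level over these 6 libraries. They were Cd44, Plcb1 and Iqgap1 for Ms4a4c (distance 0.543 to 0.604), Nrg1, Napsa and Dock5 for Ms4a4b (0.266 to 0.299), Eif4e3, Obfc2a and Rabgap1l for Ms4a6b (0.326 to 0.499) and Kif20b, Ptpn22 and Tusc1 for Ms4a6c (0.317 to 0.434). For Ms4a6d they were Tmem29, Cand1 and E330016A19Rik (0.202 to 0.342), and for Ms4a3 Cldn15, Oasl1 and B3gnt5 (0.231 to 0.367). Cd44, a receptor for hyaluronan, was at 43.2, 39.0 and 43.3 FPKM in BMDM and at 0.269, 0.253 and 0.317 in BSM, close to Ms4a4c in every library. No member was among the 3 closest genes of another.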

How the data were processed

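RNA-Seq of 3 BMDM and 3 BSM libraries was analysed from 2 tables of the whole series. Paired-end reads of 100 bases were mapped by TopHat, and the authors deposited Cufflinks FPKM per gene for each library. The submitters' processing notes name CASAVA 1.7.0, TopHat 1.3.1, Bowtie 0.12.7, Cufflinks 1.0.3 and mm9. The authors also deposited an ALEXA-Seq signal for each gene, whose unit and normalization are not given in the sources used here. The study lists mapped reads for each library, but neither table holds reads per gene, so no read-based interval is given. Among FPKM under 0.03 the most common ratio to BMDM replicate 1, which reflects what 1 read is worth, was between 0.737 and 1.07 over the other 5 libraries. Array data were not analysed here.

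Groups, replicate numbers and sex came from the labels. Table starts are counted from 0, as 7538 of 17762 genes then have the span of GENCODE M21 against 265 otherwise, and positions are printed counted from 1. Log2(FPKM + 1) was compared with limma 3.58.1 in R 4.3.3 (mean-variance trend, Benjamini-Hochberg) over the 6364 genes that reached an FPKM of 3 in 1 library or more, without further scaling, and log2(ALEXA-Seq signal + 1) over the 6364 genes with the highest values. Fold changes on this scale understate those of low genes. The step was tested on simulated data. Replicates are separately sorted pools. Transcripts (GENCODE M21) were compared with blastn 2.17.0, and promoters (RefSeq, GRCm38.p6) with Biopython 1.88. No promoter was at hand for Ms4a6d.

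The members, the gene lists and the alternatives were chosen with earlier results of these data known. The genes named are the 7 members, the other Ms4a genes, Tmem176a and Tmem176b, the reported partners, called neighbours, marker genes and the 3 nearest genes of each tested member. Other Ms4a genes were taken by symbol, so Ms4a20 and Ms4a19 (listed as 1700017D01Rik and 1700025F22Rik, both at 0) were counted as neighbours. Some listed marker genes are not reported here. Marker lists of dendritic cells, astrocytes, oligodendrocytes, neurons and endothelial cells were also read. Per library in BMDM and in BSM they summed to at most 9.72 and 90.4 FPKM for dendritic cells (Siglech, also a microglia marker, held most of the latter), to at most 0.0922 and 9.51 for astrocytes, 8.62 and 1.21 for oligodendrocytes, 0.0887 and 0.249 for neurons, and 2.84 and 1.97 for endothelial cells.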

Additional observations from a re-analysis of the deposited data

How the results depend on the processing

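The tests were repeated with a pseudocount of 0.1, with the FPKM minimum lowered to 1 or dropped, under 3 scalings, without the trend, with library quality weights, with a replicate block and with each library left out. Ms4a4b, Ms4a4c, Ms4a6b and Ms4a6c were called higher in BMDM by FPKM under all 15 alternatives. By ALEXA-Seq Ms4a4c, Ms4a6b and Ms4a6c were called under all 14, and Ms4a3 under the 13 that tested it. The number of members called was 4 or 5 by FPKM and between 3 and 5 by ALEXA-Seq, with 4 to 5 and 3 to 5 when 1 library was left out. Over the same alternatives 18.3% to 73.9% of all tested genes were called by FPKM and 14.3% to 84.3% by ALEXA-Seq. At the same sum 5 members were called in each table, of which 4 were higher in BMDM and Ms4a6d was higher in BSM. Without BMDM replicate 2 Ms4a3 was not among the genes tested in either table. By FPKM Ms4a3 was called under 5 of 14 alternatives (adjusted p 0.00445 to 0.174, limma), which were a pseudocount of 0.1, a minimum of 1, no trend, quality weights and leaving out BMDM replicate 1. Ms4a6d changed sign to -0.51 (quantile normalization), -0.38 (upper quartile) and -0.78 (same sum) by FPKM, and to -0.61, -0.61 and -1.17, and -0.037 with quality weights, by ALEXA-Seq. The cause was not tested. Other Ms4a genes and relatives called numbered 2 in each table and 4 in each with no minimum, when Ms4a1 (0.15 by FPKM, 1.302 by ALEXA-Seq) and Ms4a4d (0.56 and 2.17), then tested, were called higher in BMDM. The count was 2 to 3 with 1 library left out.

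Of all genes, 3470 were called by FPKM (2883 higher in BMDM, 587 in BSM) and 3050 by ALEXA-Seq (2359 and 691). The split became 1378 and 1227 by FPKM after quantile normalization, 1395 and 1008 after upper quartile scaling, 973 and 1582 at the same sum, and 1439 and 1349, 1188 and 1120, and 845 and 1926 by ALEXA-Seq. Quality weights, whose estimation stopped before its tolerance, gave 881 higher in BSM by FPKM, and 5362 calls by ALEXA-Seq (4018 and 1344). Leaving out BMDM replicate 3 gave 1974 ALEXA-Seq calls (1451 higher in BMDM), and leaving out BMDM replicate 2 gave 1545 higher in BMDM. Same-numbered libraries shared a number and, per the labels, the sex of the mice. The correlation of their deviations was -0.019, -0.008 and 0.134 by FPKM, and 0.015, 0.043 and 0.104 by ALEXA-Seq. With 3 libraries a group, these values cannot decide whether same-numbered libraries came from the same mice. The replicate block gave 3471 and 2885 calls, with 4 members called in each table. An identity of the proteins was planned but not run.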
